A study of Mus musculus with 26 samples.

Results

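The genes described here are 43 DNA replication factors, chosen as a fixed list of origin, helicase, polymerase and fork genes and looked up by symbol. All 43 were present among the 24412 gene symbols of each of the 3 tables of expression values, and their levels were followed across every stage, genotype and injection of a mouse (C57BL/6J) study of the histone demethylases KDM3A and KDM3B, which remove methyl groups from lysine 9 of histone H3. The list's rule uses no measured values, but the list was chosen with earlier results of these data known. It holds the 6 subunits of the origin recognition complex (Orc1 to Orc6), the helicase loaders Cdc6 and Cdt1 with the CDT1 inhibitor geminin (Gmnn), the 6 MCM helicase subunits (Mcm2 to Mcm7), 6 genes of helicase activation (Cdc45, Gins1 to Gins4 and Mcm10), 4 of primase and polymerase alpha, 5 of polymerases delta and epsilon, Pcna with the 5 clamp loader subunits (Rfc1 to Rfc5), the 3 subunits of the single-strand binding protein RPA, the Okazaki fragment genes Fen1 and Lig1, and Chaf1a and Chaf1b of the histone chaperone CAF-1.

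Females carried Zp3-Cre, which is active in growing oocytes, with floxed alleles of both genes (Kdm3a f/f; Kdm3b f/f), and their eggs were mixed with wild-type sperm by in vitro fertilisation, so that the embryos (mDKO, maternal Kdm3a/b double knockout) carry deleted maternal and intact paternal alleles. The genotype of the control animals is given only as control. Without injection, mDKO and control samples were taken as oocytes arrested at metaphase II (MII), 2-cell embryos of an early (E2C) and a late (L2C) time. Injected E2C embryos were mDKO with Kdm3aWT, mDKO with Kdm3aHA, mDKO with mCherry and control with mCherry, and injected wild-type 4-cell embryos (4C) had received Kdm3aWT, Kdm3aHA or mCherry; what HA stands for is not explained, and mCherry is a fluorescent protein that serves as the injection control. The L2C titles say DKO while their genotype label says maternal DKO, and no cross is described for them. Each of the 13 groups has 2 libraries of polyadenylated RNA, each from a pool of 12 to 20 embryos, and ages of the animals are not given. The labels do not say whether both pools of a group trace to different mothers, so p-values measure the spread between pools, which may be technical.

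DNA replication starts at sites marked by the origin recognition complex. In G1, CDC6 and CDT1 help it load the ring-shaped MCM helicase, a step that geminin blocks once replication has begun, so that each origin is used a single time per cycle. CDC45 and the GINS complex then join the MCM ring to form the active helicase, with MCM10 needed for its activation. Primase and polymerase alpha lay down primers, the clamp loader RFC places the PCNA ring on DNA, polymerase epsilon copies mainly the leading strand and polymerase delta the lagging strand, RPA covers single strands, FEN1 and DNA ligase I join Okazaki fragments, and CAF-1 places new histones behind the fork. Early mouse embryos replicate their genome with mRNAs and proteins stored in the oocyte until the embryo's own genome becomes active, which in the mouse happens mainly in the late 2-cell embryo.

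Levels are in TPM, the abundance per transcript length scaled to a total of 1000000 in each library, given per library with replicate 1 first. Differences are on the log2(TPM + 1) scale with their standard error (SE), from limma with Benjamini-Hochberg adjustment over all genes tested, n = 2 libraries per group, and a gene is said to rise, fall or be called where the adjusted p is under 0.05. With 2 against 2 libraries an exact permutation test of a single gene could not go below p = 0.333. The 26 libraries summed to between 999986 and 1000000 TPM, held 7649 to 12396 genes at 1 TPM or more, and replicates correlated at r = 0.9676 to 0.9952 across genes. Replicate 2 of the mCherry-injected 4C embryos held the fewest genes and stood apart. Read depth cannot be recovered from TPM. Kdm3a averaged less in mDKO than in control libraries at every stage: MII oocytes had 0.725 and 0.718 TPM in mDKO against 8.08 and 8.83 TPM in control, E2C embryos 0.642 and 0.557 TPM in mDKO against 2.59 and 2.07 TPM in control, and L2C embryos 28.4 and 26.3 TPM in mDKO against 34.1 and 43.8 TPM in control. Injected mDKO E2C embryos had 4122 and 2315 TPM of Kdm3a after Kdm3aWT and 4043 and 3907 TPM after Kdm3aHA, against 0.262 and 0.411 TPM after mCherry. Kdm3b had 1.75 and 1.87 TPM in mDKO against 26.6 and 25.0 TPM in control MII oocytes. At E2C it had 0.129 and 0.289 TPM in mDKO against 1.05 and 0.400 TPM in control, and at L2C 0.651 and 1.79 TPM against 3.06 and 3.70 TPM. Injected mDKO embryos had 0.190 and 0.201 TPM of Kdm3b after Kdm3aWT, 0.192 and 0.154 TPM after Kdm3aHA and 0.254 and 0.128 TPM after mCherry. Which exons the deletions remove is not given. The oocyte marker list (8 genes) was detected in full in every 2-cell group. In whole embryos, fewer cells with a transcript and less transcript per cell cannot be told apart, and in polyadenylated RNA neither can a change of level and a change of tail length.

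The replication genes together made up a small and stage-dependent share of the transcriptome. Their summed level was 4220 and 4092 TPM in mDKO against 4157 and 4228 TPM in control MII oocytes, 6666 and 6632 TPM in mDKO against 6028 and 6218 TPM in control E2C embryos, and 4650 and 4581 TPM in mDKO against 5821 and 5168 TPM in control L2C embryos. With TPM rescaled by median-ratio size factors (size-factor scaling) the mean sum at MII was higher in mDKO (3796) than in control (3634), the other way round from the unscaled means of 4156 in mDKO and 4193 in control. In the 8 injected E2C libraries the unscaled sum was 6399 to 6720 TPM, with the highest mean in mCherry-injected control embryos (6646). With size-factor scaling the mean was highest after Kdm3aWT (7108). It was 6527 after Kdm3aHA, 6005 in mDKO after mCherry and 6254 in control after mCherry. At 4C the unscaled sum was 4615 and 4865 TPM after Kdm3aWT and 3826 and 4896 TPM after Kdm3aHA, against 3896 and 3898 TPM after mCherry. At 4C too the order turned with that scaling, to means of 4041 after Kdm3aWT and 3971 after Kdm3aHA against 5053 after mCherry (SD 1929, n = 2). In all 26 libraries the sum lay between 0.383% and 0.672% of all TPM. Orc6, Gmnn, Rpa3 and Pcna alone held between 43.6% (control MII) and 70.6% (Kdm3aWT-injected mDKO and mCherry-injected control E2C) of the group mean sum. At the low end, Pold1 and Pole, the catalytic subunits of polymerases delta and epsilon, averaged below 1 TPM in all 6 E2C groups, and Pold1 did so at L2C as well. Exons of Orc2, Orc4, Orc6, Mcm7, Cdc45, Gins2, Rfc2, Rfc4, Rfc5, Fen1, Lig1 and Chaf1a overlap exons of protein-coding genes on the other strand in GENCODE M21, Orc1 and Pole overlap non-coding ones there, and Orc5 and Pole2 overlap other genes on their own strand; whether counting used the strand is not given, so values of these genes may include reads of their neighbours.

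Subunits of the same complex were far from equal in their mRNA levels. Of the 3 RPA subunits, Rpa3 averaged 1069.5 TPM and Rpa2 11.3 TPM in control E2C embryos, while in control L2C embryos Rpa2 averaged 214 TPM and Rpa1 5.43 TPM. The order of the RPA subunits thus differed between the stages. Among the GINS subunits of control E2C embryos Gins4 was the highest at 214 TPM and Gins3 the lowest at 1.59 TPM, and in control L2C embryos the mean levels ran from Gins3 at 17.1 TPM to Gins4 at 139 TPM. Orc6 led the origin recognition complex in all 13 groups, with 535 TPM against 1.05 TPM for Orc3 in control MII oocytes. Levels across the 3 tables are set side by side only as a description.

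**Figure D1:**
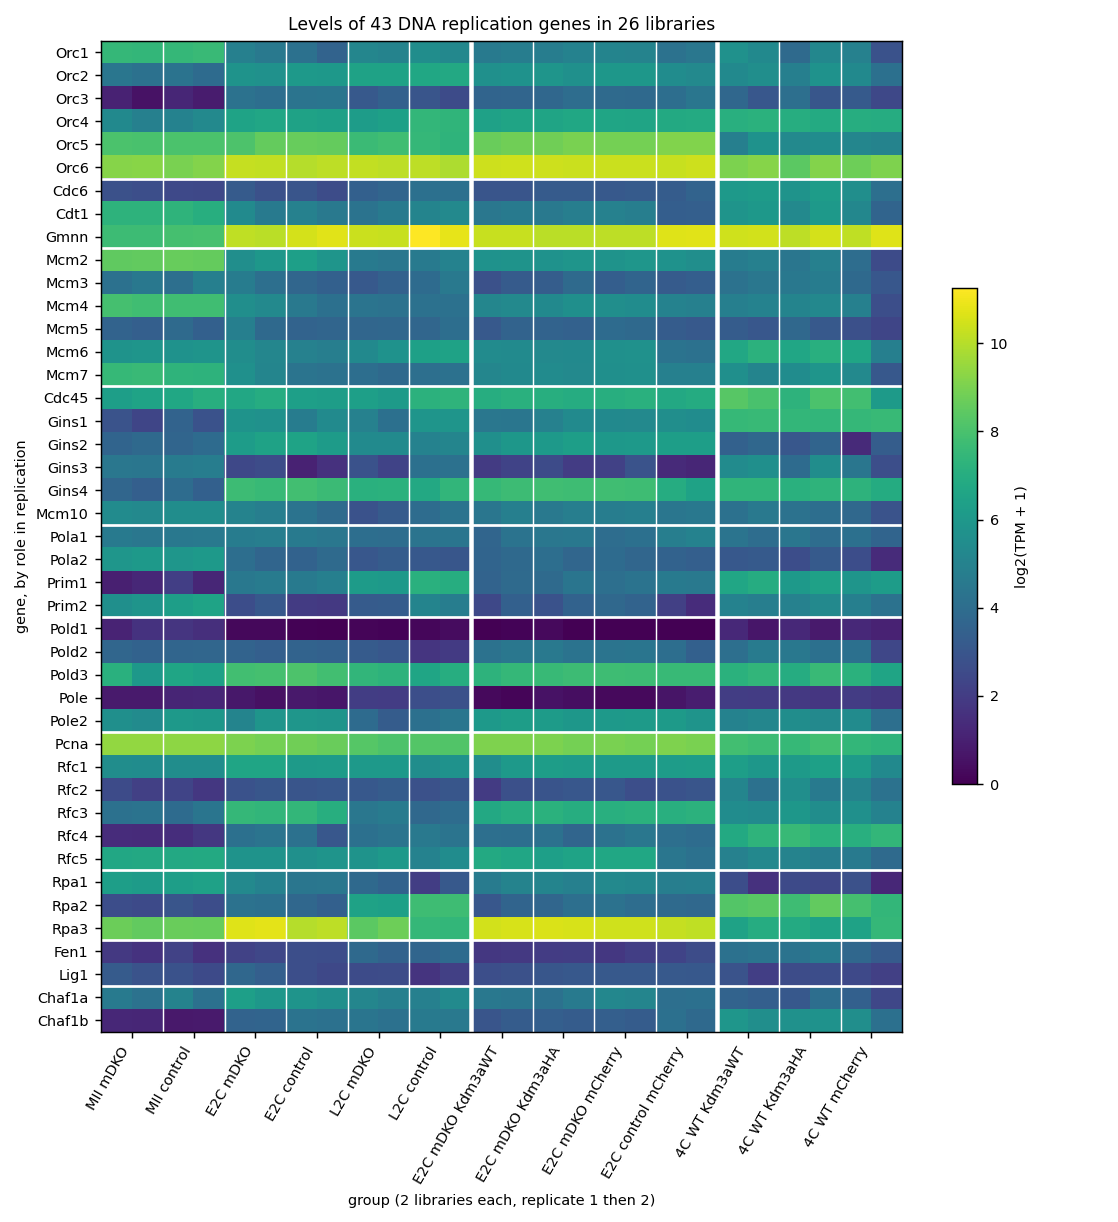
Levels of the 43 replication genes (rows, grouped by role) in the 26 libraries (columns, 2 per group), as log2(TPM + 1) on a colour scale from dark (0) to bright. Orc6 and Gmnn are bright in the 2-cell groups, Pold1 and Pole are dark at E2C, and thick white lines part the 3 tables.

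The passage from oocyte to embryo in control samples shows what each stage holds with KDM3A and KDM3B present. Between MII oocytes and E2C embryos 20 replication genes rose and 17 fell of 43 tested, where 72.1% of all genes were called, 35.1% higher and 37% lower. Of the 6 MCM genes 5 fell and none rose, and of the 6 origin recognition genes 5 rose and Orc1 fell. Between E2C and L2C 15 members rose and 16 fell of 43, where 65.6% of all genes were called, 35.5% higher and 30.1% lower. The 2 steps share the control E2C libraries. MII libraries were made with a different kit from E2C libraries and the L2C kit is not given, so stage and library kit cannot be told apart. With size-factor scaling, which shifted the median of all genes between MII and E2C from 0.03 to 0.19 on the log2 scale, 21 members rose and 13 fell, and Cdc45, Mcm3, Pcna and Pole were no longer called; the calls over all genes were 5023 higher and 5300 lower, or 5667 higher and 4687 lower with that scaling.

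Several genes fell from the oocyte to E2C in control samples, and of those given here all but Mcm4 rose again at L2C. Prim2 had 76.8 and 91.4 TPM in MII oocytes, 2.82 and 2.69 TPM in E2C embryos and 32.8 and 26.4 TPM in L2C embryos. This gene (chr1:33453808-33669808, RefSeq GRCm38.p6), the large primase subunit, changed by -4.50 ± 0.19 (SE; adjusted p = 4.1e-09) on the log2 scale from MII to E2C and by 3.02 ± 0.19 (SE; adjusted p = 1.38e-07) from E2C to L2C. Gins3 had 24.7 and 26.1 TPM in MII oocytes, 1.11 and 2.07 TPM in E2C embryos and 16.9 and 17.4 TPM in L2C embryos. Gins3 (chr8:95633559-95645059), a GINS subunit, fell to E2C with a log2 difference of -3.38 ± 0.23 (SE; adjusted p = 1.53e-07) and rose to L2C with a log2 difference of 2.83 ± 0.23 (SE; adjusted p = 1.04e-06). Orc1 had 177 and 197 TPM in MII oocytes, 17.4 and 11.1 TPM in E2C embryos and 45.2 and 37.4 TPM in L2C embryos. Orc1, the subunit of the origin recognition complex that leaves it after G1 in mammalian cells, fell with a log2 difference of -3.65 ± 0.20 (SE; adjusted p = 2.58e-08) and then rose by 1.5 (adjusted p = 5.48e-05). Mcm4 had 218 and 218 TPM in MII oocytes, 22.6 and 16.6 TPM in E2C embryos and 17.4 and 17.2 TPM in L2C embryos. This MCM subunit fell with a log2 difference of -3.43 ± 0.16 (SE; adjusted p = 8.45e-09) at E2C, and its 2 libraries at L2C were not called apart from E2C (-0.15, adjusted p = 0.426).

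Other genes were low in the oocyte and high at E2C. Gins4 had 14.7 and 9.78 TPM in MII oocytes, 226 and 203 TPM in E2C embryos and 109.9 and 168 TPM in L2C embryos. The GINS gene Gins4 therefore ran opposite to Gins3, with a log2 difference of 4.05 ± 0.22 (SE; adjusted p = 2.3e-08) between MII and E2C. Chaf1b had 0.688 and 0.766 TPM in MII oocytes, 18.7 and 17.1 TPM in E2C embryos and 23.5 and 22.2 TPM in L2C embryos. Chaf1b, the middle subunit of CAF-1, rose with a log2 difference of 3.45 ± 0.17 (SE; adjusted p = 9.24e-09). Orc3 had 1.31 and 0.787 TPM in MII oocytes, 19.2 and 19.9 TPM in E2C embryos and 6.79 and 4.86 TPM in L2C embryos. Both Orc3 libraries of E2C were above both of MII, with a log2 difference of 3.34 ± 0.25 (SE; adjusted p = 2.55e-07). Prim1 had 3.24 and 1.31 TPM in MII oocytes, 24.1 and 28 TPM in E2C embryos and 138 and 129 TPM in L2C embryos. The catalytic primase subunit Prim1 rose at both steps, with a log2 difference of 3.10 ± 0.25 (SE; adjusted p = 5.14e-07) and then one of 2.31 ± 0.25 (SE; adjusted p = 9.08e-06).

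Between E2C and L2C the RPA genes went in different directions, Rpa2 with the highest log2 difference of the list. Rpa2 had 6.83 and 5.39 TPM in MII oocytes, 12.6 and 9.98 TPM in E2C embryos and 215 and 213 TPM in L2C embryos. Rpa2 (chr4:132768360-132778746), which carries the regulatory phosphorylation sites of RPA, rose with a log2 difference of 4.14 ± 0.16 (SE; adjusted p = 7.74e-09). Rpa3 had 408 and 395 TPM in MII oocytes, 1011 and 1129 TPM in E2C embryos and 179 and 172 TPM in L2C embryos. Rpa3, the smallest subunit, fell with a log2 difference of -2.60 ± 0.12 (SE; adjusted p = 2.26e-08), and Rpa1 had 77.8 and 86.4 TPM in MII oocytes, 20.3 and 21.0 TPM in E2C embryos and 3.07 and 7.79 TPM in L2C embryos. The large DNA-binding subunit Rpa1 fell with a log2 difference of -1.85 ± 0.29 (SE; adjusted p = 0.000179). The clamp loader gene Rfc3 had 13.1 and 14.7 TPM in L2C against 172 and 132 TPM in E2C control embryos, the lowest log2 difference of the list at this step at -3.35 ± 0.19 (SE; adjusted p = 5.65e-08). Pold2, an accessory subunit of polymerase delta, had 2.37 and 2.77 TPM in L2C against 11.1 and 10.4 TPM in E2C control embryos, with a log2 difference of -1.72 ± 0.17 (SE; adjusted p = 4.53e-06).

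**Figure D2:**
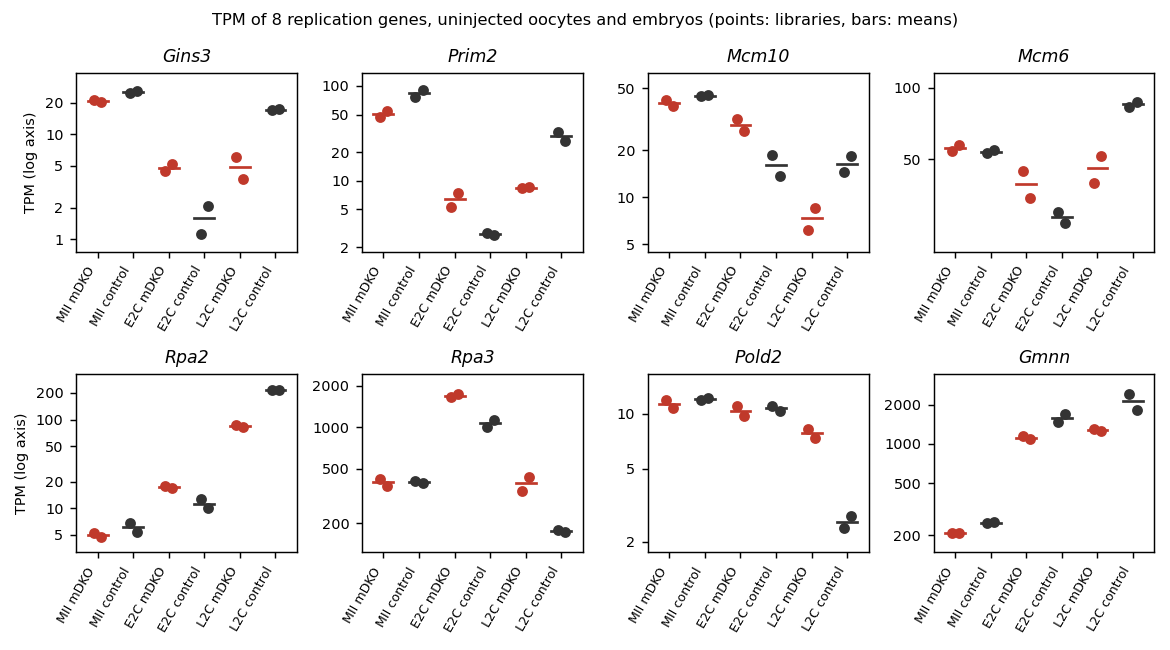
TPM per library (points, log axis; bars are means of 2) of 8 replication genes in uninjected mDKO (red) and control (dark) MII oocytes, E2C and L2C embryos. Gins3 and Prim2 of E2C are lowest in control embryos, whereas at L2C the mDKO libraries of Gins3, Prim2, Mcm10, Mcm6, Rpa2 and Gmnn lie below the control ones.

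In MII oocytes no replication gene passed the test between mDKO and control. Limma called 0 of 43, where 4.25% of all genes were called (0.845% higher and 3.41% lower). Its unadjusted p was under 0.05 for 5 of 43 members and 2657 of 10765 genes, a smaller share among members. The 4 members with the largest change all averaged lower and did not pass. Prim2 had 47.1 and 55.0 TPM in mDKO and 76.8 and 91.4 TPM in control oocytes (log2 difference -0.71 ± 0.14, adjusted p = 0.0549). Gins1, a GINS subunit, had 6.32 and 4.03 TPM in mDKO and 11.1 and 6.17 TPM in control oocytes (log2 difference -0.62 ± 0.34, adjusted p = 0.321). Prim1 had 0.981 and 1.39 TPM in mDKO and 3.24 and 1.31 TPM in control oocytes (log2 difference -0.53 ± 0.35, adjusted p = 0.417). Only the 2 genotypes' libraries of Prim2 and Pole2, an accessory subunit of polymerase epsilon, were apart among these, with 47.5 and 42.1 TPM of Pole2 in mDKO and 65.5 and 61.3 TPM in control oocytes (log2 difference -0.49 ± 0.12, adjusted p = 0.0787). The median log2 difference was -0.07 over members and -0.05 over all genes. Prim2 was called where genes were kept only at 5 TPM or more. Over all genes the calls were 91 higher and 367 lower, or 112 higher and 257 lower with size-factor scaling.

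In uninjected E2C embryos the replication genes that passed the test were nearly all higher without maternal KDM3A and KDM3B. Limma called 10 of 41 tested, 9 higher and 1 lower, where 14.4% of all genes were called and lower calls were the more common (5.38% higher and 8.99% lower). The 9 were spread over the pathway: Mcm4 and Mcm7 of the helicase, Cdc45, Gins3 and Mcm10 of its activation, Prim2 of primase, Rpa1 and Rpa3 of RPA, and Lig1. Geminin, the inhibitor of licensing, was the 1 gene lower. The median log2 difference was 0.22 over the 41 members and -0.01 over all genes. Pold1 and Pole were too low to be tested.

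Gins3 had 4.42 and 5.18 TPM in mDKO and 1.11 and 2.07 TPM in control E2C embryos, a log2 difference of 1.18 ± 0.29 (SE; adjusted p = 0.0283). Mcm7 had 48.8 and 33.9 TPM in mDKO and 19.2 and 17.7 TPM in control embryos, a log2 difference of 1.1 ± 0.22 (SE; adjusted p = 0.0137). Mcm4 had 46.7 and 38.6 TPM in mDKO and 22.6 and 16.6 TPM in control embryos, a log2 difference of 1.09 ± 0.21 (SE; adjusted p = 0.0128). In all 3 genes both mDKO libraries were above both control libraries, as in 21 of the 41 members tested. Libraries overlapped in 14 of the 41. Over all genes this was not counted. Lig1, the DNA ligase of Okazaki fragments, had 12.7 and 9.44 TPM in mDKO and 5.43 and 4.47 TPM in control embryos, a log2 difference of 1.01 ± 0.25 (SE; adjusted p = 0.0319). Gmnn (chr13:24751845-24761937) had 1143 and 1090.2 TPM in mDKO and 1463 and 1682 TPM in control embryos, a log2 difference of -0.49 ± 0.11 (SE; adjusted p = 0.024). Its libraries did not overlap between the genotypes either. The other 5 called members, Prim2, Mcm10, Rpa1, Rpa3 and Cdc45, had log2 differences between 0.55 and 0.96. Of these, Rpa3 had the lowest adjusted p (0.00596), with 1666 and 1737 TPM in mDKO and 1011 and 1129 TPM in control embryos.

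These E2C calls rest on few libraries. Leaving out control replicate 1 or control replicate 2 ended nearly all of them. Leaving out mDKO replicate 2 instead raised the number called, among members and over all genes alike. At the filter of 5 TPM Gins3 was no longer tested, since only mDKO replicate 2 reached that level, and the other 9 called members kept their calls. With no filter on low TPM limma called 0 members, and 130 higher and 279 lower of 19697 genes. Unadjusted p was under 0.05 for 17 members, as in the filtered test, where it was so for 3273 of 11140 genes. With size-factor scaling 11 were higher and 0 lower, Gmnn being lost (adjusted p = 0.102) and Mcm3 and Orc1 gained. Over all genes that scaling gave 777 higher and 933 lower of 11140. The early 2-cell marker list (Zscan4 genes, Tcstv1, Tcstv3, Usp17la and Dux, 9 of 9 lower in mDKO) summed to 283 and 319 TPM in mDKO against 1379 and 1958 TPM in control embryos, and all 9 genes were detected in both. The oocyte list (8 genes, H1foo and Zp3 called higher) summed to 4464 and 4607 TPM in mDKO against 3159 and 3021 TPM in control embryos. Cumulus and granulosa markers (9 genes) summed to 171 and 206 TPM in mDKO against 90.4 and 88.1 TPM in control embryos, with Foxl2 and Amh at 0 in mDKO and Amh and Inha at 0 in control embryos. Serpine2 made up most of these sums, with 166 and 202 TPM in mDKO and 89.2 and 85.1 TPM in control embryos. Sperm and spermatid markers (6 genes) summed to 13.7 and 12.1 TPM in mDKO against 37.9 and 52.6 TPM in control embryos, with Prm1 and Tnp2 at 0 in both, and blood cell markers (6 genes) to 1.75 and 1.3 TPM in mDKO, with 2 at 0, against 12.2 and 19.7 TPM in control embryos, with 4 at 0. The part of these in the replication genes' differences was not tested.

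At L2C 14 replication genes were lower and 7 higher in mDKO embryos of 42 tested. The share of members called, 21 of 42, stands beside 42.4% of all genes called (19.1% higher and 23.3% lower), and lies near it. By role, the lower genes were Cdc6, Cdt1 and Gmnn (3 of 3 of helicase loading and its inhibitor), Cdc45, Gins1, Gins3 and Mcm10 (4 of 6 of helicase activation), Mcm3 and Mcm6 (2 of 6 MCM genes), Prim1 and Prim2 (2 of 4 of primase and polymerase alpha), Rpa2, Orc4 and Pole. The higher genes were Rfc1, Rfc3 and Rfc5 (3 of 6 of the clamp loader with Pcna), Pold2 and Pold3 (2 of 4 tested of polymerases delta and epsilon), and Rpa1 and Rpa3 (2 of 3 of RPA). Roles were not tested against other genes, and several of these calls rest on single libraries, as given after the values. The median log2 difference was -0.20 over members and 0.00 over all genes.

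Prim2 had 8.49 and 8.53 TPM in mDKO and 32.8 and 26.4 TPM in control L2C embryos, a log2 difference of -1.68 ± 0.18 (SE; adjusted p = 0.000664). Gins3 had 6.05 and 3.73 TPM in mDKO and 16.9 and 17.4 TPM in control embryos, a log2 difference of -1.65 ± 0.24 (SE; adjusted p = 0.00208). Both mDKO libraries were below both control libraries in each gene, while at E2C mDKO embryos had 5.31 and 7.45 TPM of Prim2 and the values of Gins3 given above. Rpa2 had 87.6 and 82.3 TPM in mDKO and 215 and 213 TPM in control embryos, a log2 difference of -1.33 ± 0.11 (SE; adjusted p = 0.000334). Gins1 (chr2:150909556-150931280) had 29.9 and 16.9 TPM in mDKO and 57.5 and 56.7 TPM in control embryos, a log2 difference of -1.31 ± 0.25 (SE; adjusted p = 0.00608). Neither gene's libraries overlapped between the genotypes. The other 10 lower members ranged from -1.1 (Orc4) to -0.57 (Cdc6). Cdt1, the licensing factor, had 18.5 and 23.2 TPM in mDKO and 32.6 and 38.0 TPM in control embryos (log2 difference -0.74 ± 0.18, adjusted p = 0.0147), and its inhibitor Gmnn had 1306 and 1253 TPM in mDKO and 2424 and 1831 TPM in control embryos (log2 difference -0.72 ± 0.14, adjusted p = 0.00674). Both thus fell by a like amount on the log2 scale.

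Among the higher members, Pold2 (chr11:5872180-5878256) had 8.30 and 7.33 TPM in mDKO and 2.37 and 2.77 TPM in control L2C embryos, a log2 difference of 1.3 ± 0.23 (SE; adjusted p = 0.00415). Rpa3 had 344 and 436 TPM in mDKO and 179 and 172 TPM in control embryos, a log2 difference of 1.14 ± 0.14 (SE; adjusted p = 0.000937). Rpa1 had 13.4 and 10.6 TPM in mDKO and 3.07 and 7.79 TPM in control embryos, a log2 difference of 1.11 ± 0.36 (SE; adjusted p = 0.0448). These are genes that fell from E2C to L2C in control embryos (log2 differences of -1.72, -2.60 and -1.85 for Pold2, Rpa3 and Rpa1), and the 2 comparisons share the control L2C libraries. Rfc5 had 54.0 and 67.6 TPM in mDKO and 30.6 and 43.2 TPM in control embryos, a log2 difference of 0.72 ± 0.20 (SE; adjusted p = 0.0264). All libraries of these 4 genes were apart by genotype. Libraries overlapped in only 8 of the 42 members tested at L2C, so being apart was common, called or not.

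Calls that no alternative ended were those of Prim2, Gins3, Rpa2, Gins1, Orc4, Mcm10, Cdc45, Prim1, Mcm6 and Gmnn on the lower side and of Pold2 and Rpa3 on the higher. Rpa1 was lost without mDKO replicate 1 (adjusted p = 0.0959), without control replicate 1 (0.126), with no filter (0.126) and with the smaller pseudocount (0.056), and Rfc5 without mDKO replicate 2 (0.108), without control replicate 1 (0.0934) and with no filter (0.0736). Cdt1 was lost without mDKO replicate 1 (0.0834) or control replicate 2 (0.0571), while Cdc6 and Pole were lost on leaving out any of the 4 libraries, Mcm3 and Pold3 on leaving out 2 of them, Rfc3 2 and Rfc1 3. At this stage the early 2-cell list summed to 2679.7 and 2155 TPM in mDKO against 918 and 709.6 TPM in control embryos (8 of 9 genes higher, all 9 detected), and the oocyte list to 1807 and 2052 TPM in mDKO against 832 and 999 TPM in control embryos (6 of 8 higher, Zp3 lower). Cumulus and granulosa markers summed to 81.4 and 82.5 TPM in mDKO, with Ptx3 of 9 at 0, against 23.9 and 31.9 TPM in control embryos, with 6 of 9 at 0. Serpine2 made up most of these sums, with 77.7 and 74.8 TPM in mDKO and 23.4 and 31.4 TPM in control embryos. Blood cell markers summed to 56.8 and 259 TPM in mDKO, with 1 of 6 (Hbb-bs) at 0. In control embryos they summed to 299 and 354 TPM, with 3 of 6 (Hbb-bs, Hbb-bt and Ptprc) at 0. Lyz2 had 6.25 and 205 TPM in mDKO and was not called, and Hba-a1 had 183 and 312 TPM in control embryos. Hba-a1 and Hba-a2 were called lower in mDKO, so the markers of this list did not move together. Their part in the replication genes' differences was not tested.

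**Figure D3:**
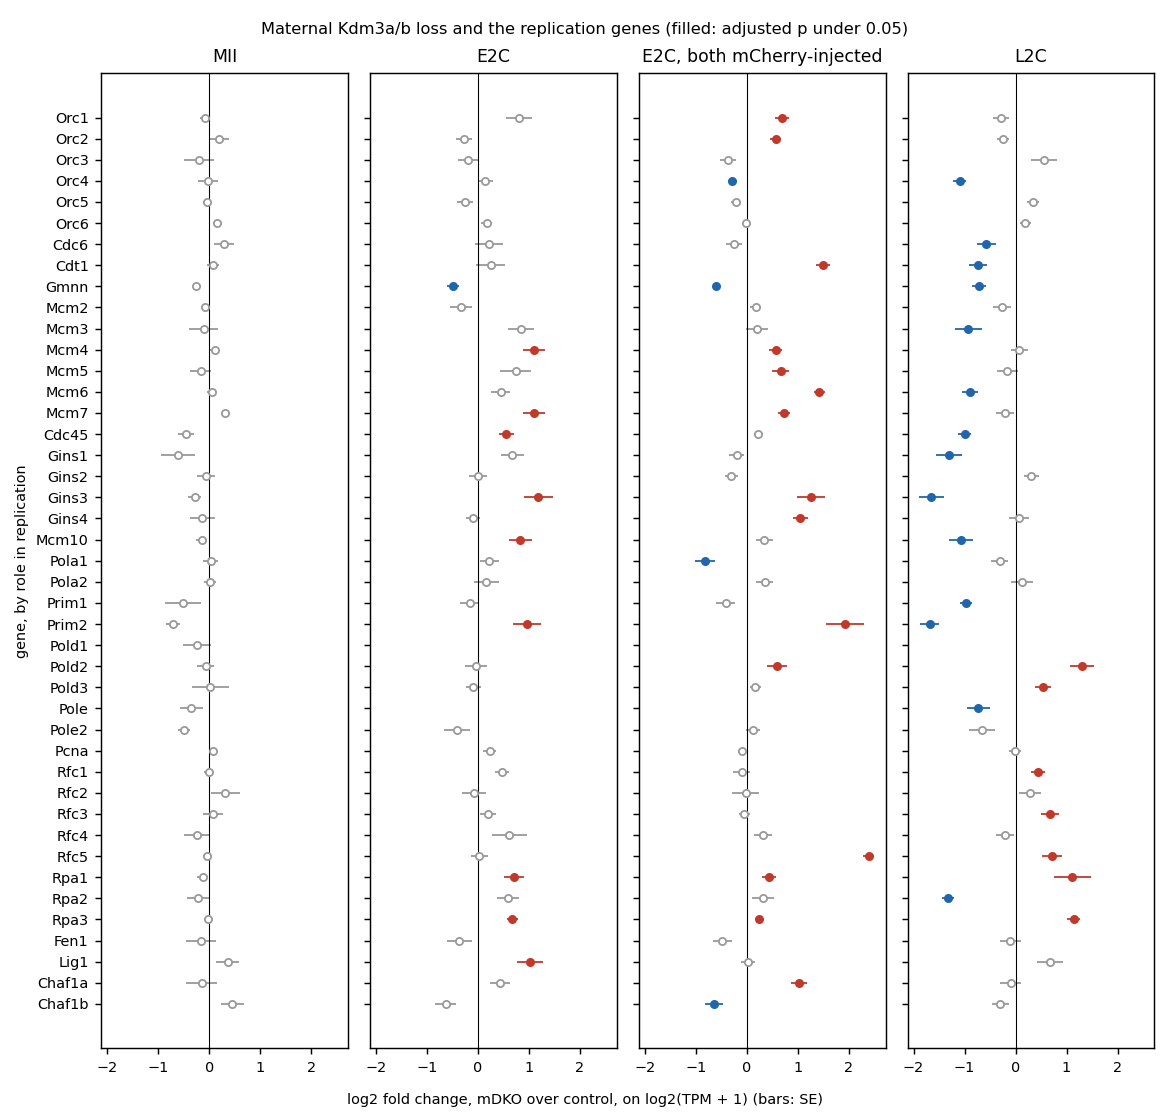
Log2 fold change, mDKO over control, on the log2(TPM + 1) scale (points; bars are SE) of the replication genes in MII oocytes, E2C embryos, mCherry-injected E2C embryos and L2C embryos; filled points passed adjusted p under 0.05 (red higher, blue lower). No point is filled at MII, 9 red and 1 blue at E2C, 15 red and 4 blue in the injected E2C embryos, and 7 red and 14 blue at L2C.

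The difference between the 2 stages was itself tested, as the mDKO effect at L2C minus that at E2C in 1 fit of the 12 uninjected libraries. It was called for 14 of 43 replication genes, 12 with a lower effect at L2C (Gins3, Prim2, Gins1, Rpa2, Mcm10, Mcm3, Cdc45, Mcm6, Mcm7, Orc4, Orc1 and Mcm4) and 2 with a higher one (Pold2 and Orc5). Over all genes 25.7% were called, with nearly even directions (13.2% higher and 12.5% lower). The calls over all genes were 1889 higher and 1789 lower, or 1573 higher and 2241 lower with size-factor scaling, when those of members were 1 higher and 15 lower. By role, 4 of 6 MCM genes and 4 of 6 helicase activation genes had a lower effect at L2C, whereas none of the 6 genes of PCNA and the clamp loader was called. E2C and L2C share no library. Cdc45, Gins3, Mcm10 and Prim2 were called higher at E2C and lower at L2C (4 of the 9 higher at E2C, 44.4%, and 4 of the 14 lower at L2C, 28.6%). Rpa1 and Rpa3 were called higher at both, and Gmnn lower at both. The same overlap over all genes was not counted, so these shares are descriptions.

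The difference of effects was -2.83 ± 0.33 (SE; adjusted p = 0.000263) for Gins3, -2.64 ± 0.27 (SE; adjusted p = 0.000153) for Prim2 and -1.98 ± 0.46 (SE; adjusted p = 0.0102) for Gins1. For Rpa2 it was -1.91 ± 0.23 (SE; adjusted p = 0.000339), with 17.8 and 16.8 TPM in mDKO and 12.6 and 9.98 TPM in control embryos at E2C. Pold2 had the highest difference at 1.35 ± 0.24 (SE; adjusted p = 0.00261), its E2C levels being 11.1 and 9.73 TPM in mDKO and 11.1 and 10.4 TPM in control embryos. Orc5, with 0.60 ± 0.20 (SE; adjusted p = 0.0455), was lost with a smaller pseudocount (0.0549), no filter (0.0684), size-factor scaling (0.222) and on leaving out any 1 of the 8 libraries of E2C and L2C other than mDKO E2C replicate 2. Mcm3 was lost without mDKO E2C replicate 1 (adjusted p = 0.0501), control E2C replicate 2 (0.0524), mDKO L2C replicate 1 (0.0528) or control L2C replicate 2 (0.052). Orc1 was lost without mDKO E2C replicate 1 (0.0544), control E2C replicate 2 (0.0588), mDKO L2C replicate 2 (0.0599) or control L2C replicate 1 (0.0595).

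Among the other genes with a lower effect at L2C, Mcm10 had 6.18 and 8.46 TPM in mDKO and 14.5 and 18.3 TPM in control embryos at L2C, and 31.7 and 26.7 TPM in mDKO and 18.6 and 13.6 TPM in control embryos at E2C, a difference of effects of -1.90 ± 0.29 (SE; adjusted p = 0.00109). Mcm6 had 39.8 and 51.6 TPM in mDKO and 83.1 and 86.8 TPM in control embryos at L2C, and 44.5 and 34.3 TPM in mDKO and 30.1 and 27.1 TPM in control embryos at E2C, a difference of effects of -1.33 ± 0.23 (SE; adjusted p = 0.00245). In both genes the mDKO libraries were below the control libraries at L2C and not at E2C. Cdc45, which joins the helicase ring, had 80.6 and 69.9 TPM in mDKO and 147 and 156 TPM in control embryos at L2C, and 106 and 122 TPM in mDKO and 79.9 and 74.8 TPM in control embryos at E2C, a difference of effects of -1.55 ± 0.22 (SE; adjusted p = 0.00074). Mcm3 had 7.90 and 10.2 TPM in mDKO and 14.2 and 22.7 TPM in control embryos at L2C, and 25.2 and 16.4 TPM in mDKO and 12.2 and 9.82 TPM in control embryos at E2C, a difference of effects of -1.76 ± 0.43 (SE; adjusted p = 0.0134). Of the last 4, Mcm7, Orc4, Orc1 and Mcm4, the difference of effects was between -1.3 (Mcm7) and -1.02 (Mcm4). The median over the 43 members was -0.34, and 0.09 over all genes.

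**Figure D4:**
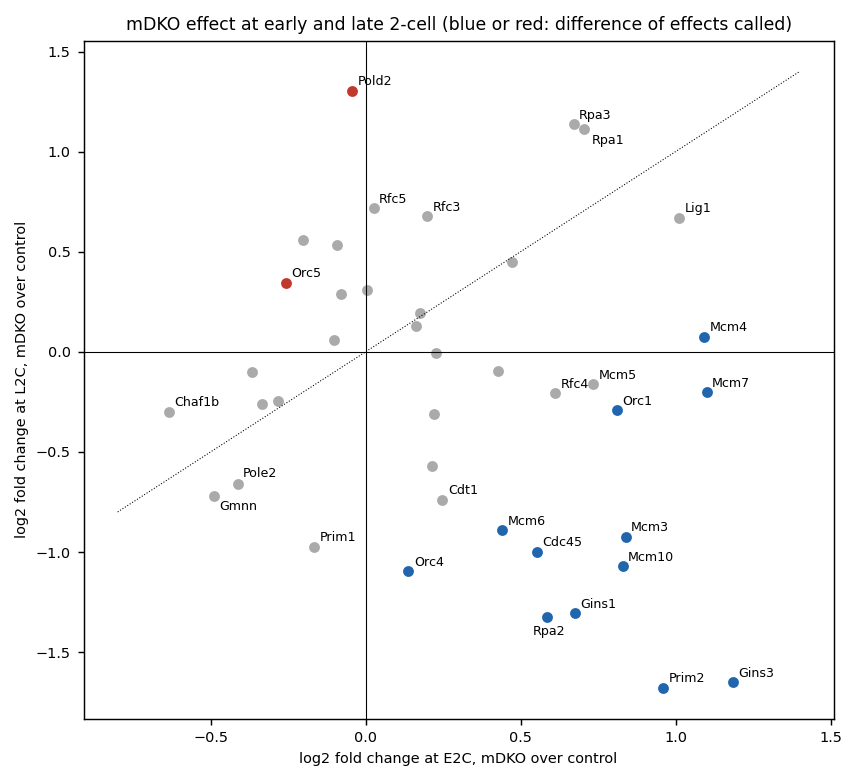
Log2 fold change of mDKO over control at E2C (x axis) against L2C (y axis) for the replication genes tested at both stages; blue and red mark the genes whose difference of effects (L2C minus E2C) was called lower and higher, and the dotted line marks equal effects. Most blue points, such as Gins3 and Prim2, lie at the lower right, higher in mDKO at E2C and lower at L2C.

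The upstream sequences of the genes called with a lower effect at L2C were set beside those of the other members. That call on these same data defined the group. RefSeq promoter sequences (GRCm38.p6, 250 bases before to 50 after the gene start) were found for 35 of the 43 members. E2F factors, which activate many replication genes at the start of S phase, bind sites close to the words TTTGGCGC, TTTCCCGC, TTTGCCGC and TTTCGCGC, and NF-Y binds CCAAT. On either strand an E2F-type word lay in 15 of 35 members (42.9%), against 704 of 27025 genes with a promoter (2.6%), and CCAAT in 22 of 35 (62.9%), against 11096 genes (41.06%). Of the 12 genes with a lower effect, 9 had a promoter sequence, and Prim2, Gins1 and Mcm4 had none. All 9 held CCAAT, against 13 of the 26 other members with a promoter (50%). An E2F-type word lay in 5 of the 9 (Gins3, Mcm3, Mcm6, Mcm7 and Orc1, 55.6%), against 10 of 26 others (38.5%). In 1 promoter an E2F-type word and CCAAT overlap. These matches are descriptions of letters, with no test.

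Upstream sequences of 5 of these genes follow, chosen for their place at the extreme of the difference or their number of words, 5′ to 3′ on the gene's strand, with words of either kind in capitals (ATTGG is CCAAT on the other strand). Bases that lie in an annotated exon were left out. The 3 E2F-type words of Mcm6 start 110, 106 and 47 bases before the gene start and the first pair overlap, forming the unbroken run TTTGGCGCGAAA; each of the 5 stretches holds CCAAT on either strand at least 2 times. The E2F-type words of Gins3 and Mcm3 lie outside the stretches shown.
Gins3, chr8:95633309-95633452, plus strand, 144 bases: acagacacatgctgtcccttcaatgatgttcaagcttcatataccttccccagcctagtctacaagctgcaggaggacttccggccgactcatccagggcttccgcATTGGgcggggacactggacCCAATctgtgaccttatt
Rpa2, chr4:132768162-132768331, plus strand, 170 bases: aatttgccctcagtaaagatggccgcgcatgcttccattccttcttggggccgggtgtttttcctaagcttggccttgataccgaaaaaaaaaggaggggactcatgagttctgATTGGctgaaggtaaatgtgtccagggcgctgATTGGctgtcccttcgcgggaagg
Mcm10, chr2:5012792-5012961, minus strand, 170 bases: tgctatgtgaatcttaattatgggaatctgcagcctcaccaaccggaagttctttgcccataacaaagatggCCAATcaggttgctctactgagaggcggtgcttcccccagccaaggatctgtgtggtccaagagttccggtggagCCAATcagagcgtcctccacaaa
Mcm3, chr1:20820313-20820482, minus strand, 170 bases: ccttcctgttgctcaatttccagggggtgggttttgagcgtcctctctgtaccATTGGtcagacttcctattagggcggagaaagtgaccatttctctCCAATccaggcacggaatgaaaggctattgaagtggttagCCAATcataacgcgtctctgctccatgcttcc
Mcm6, chr1:128359706-128359875, minus strand, 170 bases: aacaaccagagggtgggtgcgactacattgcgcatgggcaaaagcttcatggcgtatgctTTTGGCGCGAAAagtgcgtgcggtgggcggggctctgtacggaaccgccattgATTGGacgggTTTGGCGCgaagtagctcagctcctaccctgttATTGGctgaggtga

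Other genes of the replication pathway were followed in 6 lists of 79 genes, of which 78 were in the tables. In MII oocytes 0 of 71 tested were called by limma, and 10 had an unadjusted p under 0.05, as had 2657 of all 10765 genes tested. At E2C 5 of 71 were higher (Cdc7, Rrm1, Cul4a, Fbxo5 and Vcp) and 1 lower. Of all genes 5.38% were called higher and 8.99% lower, so the higher count lies near the share over all genes. The lower gene was Ccne1, the cyclin that drives S phase entry: Ccne1 had 3.65 and 3.01 TPM in mDKO and 18.4 and 14.7 TPM in control embryos (log2 difference -2.01 ± 0.24, adjusted p = 0.00169). Cdc7, the kinase that fires origins, was among the higher: Cdc7 had 23.8 and 21.0 TPM in mDKO and 13.7 and 11.7 TPM in control embryos (log2 difference 0.78 ± 0.21, adjusted p = 0.0386). The median log2 difference at E2C was 0.11. At L2C 12 of 77 were higher and 23 lower, with a median of -0.20; over all genes 19.1% higher and 23.3% lower were called at that stage, so these counts lie near the share over all genes and the counts per list below are descriptions. Between stages of control samples 16 rose and 38 fell of 77 from MII to E2C, where 35.1% of all genes rose and 37% fell. From E2C to L2C 34 rose and 21 fell, where 35.5% of all genes rose and 30.1% fell.

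Of the genes of deoxynucleotide supply, 6 of 10 were lower and 1 higher in mDKO embryos at L2C, with a median log2 difference of -0.61. Rrm1, the large subunit of ribonucleotide reductase, had 6.21 and 9.25 TPM in mDKO and 21.6 and 23.6 TPM in control embryos (log2 difference -1.45 ± 0.22, adjusted p = 0.00241), and thymidylate kinase Dtymk had 131 and 134 TPM in mDKO and 281 and 303 TPM in control embryos (log2 difference -1.14 ± 0.11, adjusted p = 0.000446). The dCTP pyrophosphatase gene Dctpp1 was the higher one, with 186 and 163 TPM in mDKO and 86.1 and 107 TPM in control embryos (log2 difference 0.85 ± 0.15, adjusted p = 0.00407). Of 17 other fork factors and histone chaperones 7 were lower, led by topoisomerase Top2a (log2 difference -1.5 ± 0.15, adjusted p = 0.000455) and the RNase H2 subunit Rnaseh2c (log2 difference -1.44 ± 0.31, adjusted p = 0.00889), and 3 higher, led by the histone chaperone Asf1b (log2 difference 0.93 ± 0.11, adjusted p = 0.000977) and the exonuclease Exo1 (log2 difference 0.73 ± 0.21, adjusted p = 0.0302), with a median of -0.41. Fork protection and checkpoint genes had 4 of 14 lower, with Dscc1 (log2 difference -1.26 ± 0.28, adjusted p = 0.01) and Wdhd1 (log2 difference -1.08 ± 0.31, adjusted p = 0.029) the lowest, and 1 higher, the checkpoint kinase Chek1 (log2 difference 0.50 ± 0.12, adjusted p = 0.0119), with a median of -0.21. Of 12 origin firing genes 3 were lower, led by Ccne1 (log2 difference -0.87 ± 0.12, adjusted p = 0.00184) and the MCM-binding protein Mcmbp (log2 difference -0.62 ± 0.16, adjusted p = 0.0211), and 0 higher, with a median of -0.10. The E2F, DP and RB families had 3 of 12 higher, led by E2f5 (log2 difference 1.03 ± 0.11, adjusted p = 0.000656) and E2f4 (log2 difference 0.74 ± 0.14, adjusted p = 0.00528), and 0 lower, with a median of 0.12. Ubiquitin control of licensing had 4 of 12 higher, led by Cul4a (log2 difference 1.22 ± 0.27, adjusted p = 0.0112) and Fzr1 (log2 difference 0.93 ± 0.18, adjusted p = 0.00674), and 3 lower, led by Dtl (log2 difference -0.91 ± 0.15, adjusted p = 0.00295), which directs CDT1 to degradation, and Cdc20 (log2 difference -0.82 ± 0.14, adjusted p = 0.00402), with a median of 0.03. Over the 6 lists the difference of effects between the stages was called higher for 7 and lower for 18 of 77. Of all genes 13.2% were called higher and 12.5% lower. Rrm1 was among the lower list genes (log2 difference -2.58 ± 0.30, adjusted p = 0.000268).

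The comparison of mDKO and control at E2C was repeated with embryos of other pools, both injected with mCherry. Of 41 replication genes tested 15 were higher and 4 lower in mDKO. The share called, 19 of 41, lies near the 46.9% of all genes called (26.9% higher and 20% lower). As in uninjected embryos, MCM and RPA genes were among the higher, with Mcm4, Mcm5, Mcm6 and Mcm7 of 6 and Rpa1 and Rpa3 of 3, and Gmnn among the lower. The injected and uninjected comparisons share no library: Gins3, Mcm4, Mcm7, Prim2, Rpa1 and Rpa3 were called higher in both (6 of 9 uninjected, 66.7%, and 6 of 15 injected, 40.0%), Gmnn was called lower in both, and no member was called in opposite directions. How many of all genes were called in both comparisons was not counted, so this overlap is a description. The median log2 difference was 0.20 over members and 0.04 over all genes.

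Rfc5, a small clamp loader subunit, had 103 and 102 TPM in mDKO and 20.5 and 17.3 TPM in control embryos injected with mCherry, a log2 difference of 2.39 ± 0.12 (SE; adjusted p = 4.76e-06). Uninjected E2C embryos had 53.2 and 53.5 TPM of Rfc5 in mDKO and 48.8 and 56.2 TPM in control, so this difference was seen in the injected embryos but not called in the others (log2 difference 0.03 ± 0.16, adjusted p = 0.94). Prim2 had 12.8 and 11 TPM in mDKO and 3.32 and 1.69 TPM in control embryos (log2 difference 1.92 ± 0.38, adjusted p = 0.00341). Cdt1 had 30.0 and 27.1 TPM in mDKO and 9.41 and 9.49 TPM in control embryos (log2 difference 1.5 ± 0.14, adjusted p = 7.15e-05). Mcm6 had 48.6 and 50.1 TPM in mDKO and 18.5 and 17.1 TPM in control embryos (log2 difference 1.42 ± 0.11, adjusted p = 2.63e-05). In each of these genes both mDKO libraries were above both control libraries. On the lower side, Pola1, the catalytic subunit of polymerase alpha, had 15.0 and 16.8 TPM in mDKO and 27.2 and 30.3 TPM in control embryos (log2 difference -0.82 ± 0.19, adjusted p = 0.00877). Gmnn had 1105 and 1112 TPM in mDKO and 1639 and 1713 TPM in control embryos (log2 difference -0.59 ± 0.06, adjusted p = 0.000119). Chaf1b had 9.59 and 8.75 TPM in mDKO and 16.8 and 13.2 TPM in control embryos (log2 difference -0.64 ± 0.17, adjusted p = 0.0147), and Orc4 had 95.7 and 92.9 TPM in mDKO and 114 and 116 TPM in control embryos (log2 difference -0.28 ± 0.09, adjusted p = 0.0356). The genotypes did not overlap in these 4 genes. They overlapped in only 6 of the 41 members tested. The other 11 higher members ranged from 0.23 (Rpa3) to 1.26 (Gins3).

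Orc4 was lost on leaving out any of the 4 libraries (adjusted p up to 0.192), Chaf1b without mDKO replicate 1 (0.0534), mDKO replicate 2 (0.0932) or control replicate 1 (0.0942), and Pola1 without mDKO replicate 1 (0.0607) or control replicate 2 (0.0562). Leaving out 1 library left between 11 and 18 members called; Rpa1, Rpa3, Mcm4, Mcm5, Gins3 and Pold2 each lost their call in at least 1 such test, Rpa1 in all 4 of them. The early 2-cell list summed to 385 and 432 TPM in mDKO against 1686 and 1962 TPM in control embryos (9 of 9 genes lower). The oocyte list summed to 4988 and 4889 TPM in mDKO against 3631 and 3915 TPM in control embryos. Cumulus and granulosa markers summed to 328 and 322 TPM in mDKO, with 3 of 9 at 0, against 64.4 and 52.7 TPM in control embryos, with 5 of 9 at 0 (Inha, Inhba and Serpine2 called higher). Serpine2 made up most of these sums, with 312 and 307 TPM in mDKO and 62.2 and 51.2 TPM in control embryos. Blood cell markers summed to 32.0 and 18.5 TPM in mDKO, with 2 of 6 at 0, against 7.51 and 4.02 TPM in control embryos, with 4 of 6 at 0. Most of the mDKO sums was Lyz2, with 30.6 and 18.0 TPM. Their part in these differences was not tested. Of the other pathway genes 27 of 73 were higher and 14 lower, with a median log2 difference of 0.24. Of all genes 26.9% were called higher and 20% lower.

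After injection of Kdm3aWT into mDKO embryos 0 of 41 were higher and 4 lower than after mCherry (Gins1, Rpa2, Chaf1a and Pold3), where 11.8% of all genes were called, 0.949% higher and 10.8% lower (104 and 1184 genes). The median of all genes was -0.19 and that of members -0.24 on the log2 scale. With size-factor scaling the calls over all genes were 331 higher and 567 lower and those of members 4 higher (Gmnn, Orc6, Pcna and Rpa3) and 1 lower (Gins1), so the direction of these counts depends on the scaling. Markers of other cells differed in the same comparison: cumulus and granulosa markers summed to 235 and 227 TPM after Kdm3aWT (3 of 9 at 0) and 219 and 236 TPM after Kdm3aHA (4 of 9 at 0), against 328 and 322 TPM after mCherry (3 of 9 at 0), with Inha, Inhba and Serpine2 called lower after each. Serpine2 made up most of these sums, with 230 and 225 TPM after Kdm3aWT, 218 and 234 TPM after Kdm3aHA and 312 and 307 TPM after mCherry. Blood cell markers summed to 0.315 and 1.14 TPM after Kdm3aWT (4 of 6 at 0) and 2.07 and 0.0611 TPM after Kdm3aHA (3 of 6 at 0), against 32.0 and 18.5 TPM after mCherry (2 of 6 at 0), with Lyz2 called lower after each. Their part in the replication genes' differences was not tested.

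Gins1 had 20.7 and 20.5 TPM after Kdm3aWT and 39.3 and 37.6 TPM after mCherry, a log2 difference of -0.87 ± 0.15 (SE; adjusted p = 0.00793), and relative to the median of all genes the difference was -0.68. Rpa2 had 7.22 and 11.4 TPM after Kdm3aWT and 18.1 and 15.4 TPM after mCherry (log2 difference -0.81 ± 0.21, adjusted p = 0.0442, or -0.62 relative to the median). Chaf1a, the large CAF-1 subunit, had 22.0 and 20.3 TPM after Kdm3aWT and 36.2 and 33.4 TPM after mCherry (log2 difference -0.69 ± 0.15, adjusted p = 0.0213, or -0.51 relative to the median). In these genes both Kdm3aWT libraries were below both mCherry libraries, as in 26 of the 41 members tested. Pold3, an accessory subunit of polymerase delta, had 151 and 179 TPM after Kdm3aWT and 218 and 209 TPM after mCherry (log2 difference -0.38 ± 0.10, adjusted p = 0.0466, or -0.18 relative to the median). On leaving out mCherry replicate 1 or mCherry replicate 2 none of the 4 was called. The adjusted p of Gins1 was 0.106 without replicate 1 and 0.0708 without replicate 2, that of Chaf1a 0.201 and 0.118, that of Rpa2 0.278 and 0.145 and that of Pold3 0.307 and 0.201. Leaving out Kdm3aWT replicate 1 ended every call but that of Gins1. Leaving out Kdm3aWT replicate 2 ended the call of Chaf1a but raised the number called, among members and over all genes alike.

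Kdm3aHA gave 0 higher and 1 lower of 41 against mCherry, where 10.8% of all genes were called, 1.54% higher and 9.29% lower (169 higher and 1018 lower, or 350 higher and 758 lower with size-factor scaling). Chaf1a had 17.2 and 22.9 TPM after Kdm3aHA and 36.2 and 33.4 TPM after mCherry (log2 difference -0.78 ± 0.15, adjusted p = 0.0132), and lost its call without Kdm3aHA replicate 1 (adjusted p = 0.0721), mCherry replicate 1 (0.15) or mCherry replicate 2 (0.0837). The next members by size did not pass: Prim2 (log2 difference -0.52 ± 0.38, adjusted p = 0.43), Rfc4 (log2 difference -0.43 ± 0.18, adjusted p = 0.169) and Pola1 (log2 difference 0.40 ± 0.19, adjusted p = 0.232). Kdm3aWT and Kdm3aHA share the mCherry libraries as their control, and the control mCherry embryos had 16.3 and 17.0 TPM of Chaf1a. Set against each other, Kdm3aWT and Kdm3aHA differed in 0 members higher and 1 lower, where 3.29% of all genes were called, 1.32% higher and 1.97% lower (145 higher and 216 lower, or 128 higher and 95 lower with size-factor scaling). Gins1 had 20.7 and 20.5 TPM after Kdm3aWT and 29.5 and 40.0 TPM after Kdm3aHA (log2 difference -0.71 ± 0.15, adjusted p = 0.0428), a call lost with no filter (0.103), with size-factor scaling (0.0666), and without Kdm3aWT replicate 1 (0.154), Kdm3aHA replicate 1 (0.0587) or Kdm3aHA replicate 2 (0.146). Without Kdm3aWT replicate 2 instead more were called, among members and over all genes alike, with medians of -0.27 over members and -0.13 over all genes. The next members did not pass: Rfc2 (log2 difference -0.65 ± 0.26, adjusted p = 0.189), Mcm3 (log2 difference -0.58 ± 0.22, adjusted p = 0.172) and Rpa2 (log2 difference -0.57 ± 0.21, adjusted p = 0.165).

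Levels after injection are given for the members named between mCherry-injected mDKO and control embryos other than Orc4. Rfc5 had 111 and 101 TPM after Kdm3aWT and 81.4 and 89.7 TPM after Kdm3aHA, against 103 and 102 TPM in mDKO and 20.5 and 17.3 TPM in control embryos after mCherry. Prim2 had 4.40 and 10.03 TPM after Kdm3aWT and 6.04 and 10.5 TPM after Kdm3aHA, against 12.8 and 11 TPM in mDKO and 3.32 and 1.69 TPM in control embryos after mCherry. Cdt1 had 21.3 and 23.7 TPM after Kdm3aWT and 22.0 and 26.7 TPM after Kdm3aHA, against 30.0 and 27.1 TPM in mDKO and 9.41 and 9.49 TPM in control embryos after mCherry. In these genes, and in Mcm6 with 42.3 and 40.7 TPM after Kdm3aWT and 37.8 and 39.5 TPM after Kdm3aHA, against 48.6 and 50.1 TPM in mDKO and 18.5 and 17.1 TPM in control embryos after mCherry, every mDKO library was above both control libraries whatever was injected. Pola1 had 11.8 and 18.7 TPM after Kdm3aWT and 21.1 and 21.5 TPM after Kdm3aHA, against 15.0 and 16.8 TPM in mDKO and 27.2 and 30.3 TPM in control embryos after mCherry. Chaf1b had 6.74 and 8.54 TPM after Kdm3aWT and 9.57 and 8.67 TPM after Kdm3aHA, against 9.59 and 8.75 TPM in mDKO and 16.8 and 13.2 TPM in control embryos after mCherry. Every mDKO library of these genes was below both control libraries. Gmnn had 1275 and 1242 TPM after Kdm3aWT and 1076 and 1067 TPM after Kdm3aHA, against 1105 and 1112 TPM in mDKO and 1639 and 1713 TPM in control embryos after mCherry. Here the 2 Kdm3aWT libraries lay between the other mDKO and the control libraries (log2 difference 0.18 ± 0.06, adjusted p = 0.0861 against mDKO mCherry, called higher with size-factor scaling only). The early 2-cell list summed to 649 and 767 TPM after Kdm3aWT and 503 and 544 TPM after Kdm3aHA. Among the other pathway genes 0 of 73 were higher and 5 lower after Kdm3aWT, and 0 higher and 9 lower after Kdm3aHA, against mCherry. Of all genes 0.949% were called higher and 10.8% lower after Kdm3aWT, and 1.54% higher and 9.29% lower after Kdm3aHA.

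**Figure D5:**
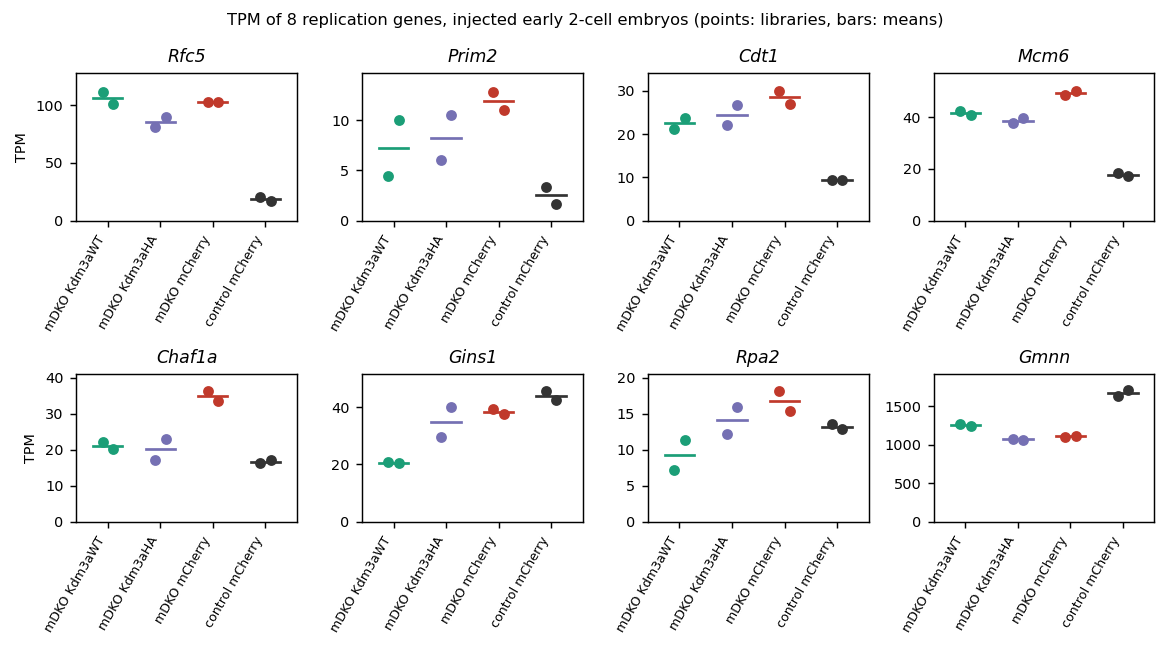
TPM per library (points, axes from 0; bars are means of 2) of 8 replication genes in injected E2C embryos: mDKO with Kdm3aWT, Kdm3aHA or mCherry, and control with mCherry. In all mDKO groups Rfc5, Cdt1 and Mcm6 lie above the control group and Gmnn below it, and Gins1 is lowest after Kdm3aWT.

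In wild-type 4C embryos no replication gene passed the test after either injection. Limma called 0 of 43 members and 0% of all genes for Kdm3aWT against mCherry, and 0 of 43 and 0% for Kdm3aHA against mCherry. Unadjusted p was under 0.05 for 776 and 264 genes, among them 7 and 5 members. The median of all genes was 0.44 after Kdm3aWT and 0.35 after Kdm3aHA, and that of members 0.59 and 0.58; with size-factor scaling the medians of all genes were 0.02 and 0.01 and those of members 0.09 and 0.15. The largest differences after Kdm3aWT, none called, were as follows. Gins3 had 41.8 and 48.1 TPM after Kdm3aWT and 20.3 and 5.53 TPM after mCherry (log2 difference 1.96 ± 0.66, adjusted p = 0.574). Orc1 had 50.3 and 39.7 TPM after Kdm3aWT and 30.2 and 6.06 TPM after mCherry (log2 difference 1.62 ± 0.69, adjusted p = 0.574). Cdt1 had 55.7 and 63.8 TPM after Kdm3aWT and 36.2 and 11.3 TPM after mCherry (log2 difference 1.5 ± 0.56, adjusted p = 0.574), and Mcm2 had 25.2 and 28.5 TPM after Kdm3aWT and 15.3 and 4.96 TPM after mCherry (log2 difference 1.5 ± 0.57, adjusted p = 0.574). In each of them mCherry replicate 2, the library that stands apart, was the lowest. After Kdm3aHA the largest were Mcm7, with 43 and 56.5 TPM after Kdm3aHA and 38.4 and 7.68 TPM after mCherry (log2 difference 1.44 ± 0.64, adjusted p = 0.843), Mcm2 (log2 difference 1.36 ± 0.57, adjusted p = 0.843), Mcm4 (log2 difference 1.35 ± 0.64, adjusted p = 0.843) and Cdt1 (log2 difference 1.26 ± 0.56, adjusted p = 0.843). Without mCherry replicate 1, the unscaled median after Kdm3aWT was 0.76 over all genes and 0.83 over members. Without mCherry replicate 2 it was 0.13 over all genes and 0.21 over members. The size of these differences thus depended on the mCherry library kept.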

How the data were processed

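RNA of pooled MII oocytes and early embryos was sequenced (26 libraries, 13 groups of 2). The authors deposited TPM values per gene symbol in 3 tables; per the submitters' processing notes, STAR 2.7.10b, Bowtie2 2.3.4.1, RSEM 1.3.1 and SAMtools 1.9 were used with mm10, in roles not given. TPM keeps no read depth, so no interval or floor from counts was computed. Groups were taken from the labels. The 43 members and all gene lists were chosen with earlier results of these data known. Here log2(TPM + 1) was tested with limma 3.58.1 (R 4.3.3; eBayes with trend, two-sided, Benjamini-Hochberg over all genes tested, call at 0.05), on genes with at least 1 TPM in at least 2 libraries. MII, E2C and L2C contrasts of genotype used their own 4 libraries; stage contrasts and the difference of effects used all 12 uninjected libraries; injected contrasts used all 8 E2C or 6 4C libraries. The procedure was tested on simulated data. Alternatives were a pseudocount of 0.1, no filter, 5 TPM, size-factor scaling, a replicate block, other sets of libraries and leaving out each library. Full statistics are given for up to 4 members with the highest and 4 with the lowest log2 difference among those called (where under 4 were called, for the 4 largest). Any further member given with its values (such as Cdt1 and Gmnn at L2C, Rpa3 at E2C) was chosen after its values were seen. Promoters came from RefSeq (GRCm38.p6), exon overlaps from GENCODE M21.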

Additional observations from a re-analysis of the deposited data

Results flagged for a closer look

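In 14 replication genes the effect of maternal loss differed between the late and the early 2-cell stage by limma's test of that difference, and each is given with its difference of log2 effects (L2C minus E2C) and the effect of mDKO over control at each stage. Gins3 differed by -2.83, with an effect of -1.65 at L2C and 1.18 at E2C. The difference was -2.64 for Prim2, whose effect was -1.68 at L2C and 0.96 at E2C. For Gins1 the effect was -1.31 at L2C and 0.67 at E2C, a difference of -1.98. Rpa2 differed by -1.91, with an effect of -1.33 at L2C and 0.58 at E2C. The difference was -1.90 for Mcm10, whose effect was -1.07 at L2C and 0.83 at E2C. For Mcm3 the effect was -0.92 at L2C and 0.84 at E2C, a difference of -1.76. Cdc45 differed by -1.55, with an effect of -1.0 at L2C and 0.55 at E2C. The difference was -1.33 for Mcm6, whose effect was -0.89 at L2C and 0.44 at E2C. For Mcm7 the effect was -0.20 at L2C and 1.1 at E2C, a difference of -1.3. Orc4 differed by -1.24, with an effect of -1.1 at L2C and 0.14 at E2C. The difference was -1.1 for Orc1, whose effect was -0.29 at L2C and 0.81 at E2C. For Mcm4 the effect was 0.08 at L2C and 1.09 at E2C, a difference of -1.02. Pold2 differed by 1.35, with an effect of 1.3 at L2C and -0.04 at E2C. The difference was 0.60 for Orc5, whose effect was 0.35 at L2C and -0.26 at E2C. The stages share no library. The calls of Mcm3 and Orc1 were lost on leaving out some single libraries, and that of Orc5 in most alternatives.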

How the results depend on the processing

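Over the members called or given as the largest uncalled in each comparison, 1412 values under an alternative kept their direction and side of the threshold, 177 no longer passed, 9 newly passed and none changed sign; other members that an alternative newly called stand in the counts that follow. Leaving out 1 library at a time gave 42 to 300 genes and 0 to 0 members called at MII, 282 to 3214 genes and 1 to 21 members at E2C, 3872 to 4514 genes and 15 to 18 members at L2C, 2575 to 3425 genes and 11 to 17 members for the difference of effects, 3117 to 4026 genes and 11 to 18 members between mCherry-injected mDKO and control embryos, 91 to 1551 genes and 0 to 8 members for Kdm3aWT, 216 to 882 genes and 0 to 1 members for Kdm3aHA, 8 to 1493 genes and 0 to 8 members for Kdm3aWT against Kdm3aHA, 0 to 491 genes and 0 to 9 members for Kdm3aWT and 0 to 21 genes and 0 to 0 members for Kdm3aHA at 4C, 9382 to 9571 genes and 33 to 36 members for E2C against MII, and 8195 to 8427 genes and 26 to 29 members for L2C against E2C in control samples.

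With no filter, 145 genes were called at MII, 409 genes and 0 members at E2C, 2 members for Kdm3aWT, and 26 genes and 0 members between Kdm3aWT and Kdm3aHA. Keeping genes at 5 TPM or more gave 1 member at MII and 604 genes between Kdm3aWT and Kdm3aHA. Size-factor scaling gave 223 genes and 0 members between Kdm3aWT and Kdm3aHA. The smaller pseudocount gave 2 members for Kdm3aWT at E2C and 2 genes at 4C. Fitting all 12 uninjected libraries together called 734 genes at MII. Fitting only the 4 libraries compared gave 2 members each for Kdm3aWT and Kdm3aHA, 10 genes and 0 members between these, and 1 and 8 genes for Kdm3aWT and Kdm3aHA at 4C. The cause of these changes was not tested.

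Summed TPM of the members moved with size-factor scaling to 3796 in mDKO and 3634 in control at MII, 7429.9 and 6751 at E2C, 4675 and 6088 at L2C, 7108 after Kdm3aWT, 6527 after Kdm3aHA, 6005 in mDKO and 6254 in control after mCherry, and 4041 after Kdm3aWT and 5053 after mCherry at 4C.

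Replicate numbers are shared between groups, but the labels give no pairing, and deviations of same-numbered libraries correlated between -0.116 and 0.359. With the replicate block, 2143 genes and 5 members (Cdc45, Gmnn, Mcm7, Pole2 and Prim2) were called at MII, and 2560 genes and 16 members at E2C. It called 0 members between Kdm3aWT and Kdm3aHA, and 26 and 2 genes for Kdm3aWT and Kdm3aHA at 4C. Leaving out libraries aside, no other total of calls (higher and lower together) moved by over 1.5 times. Counts in 1 direction did. With size-factor scaling, gene calls for Kdm3aWT at E2C went from 104 to 331 higher and from 1184 to 567 lower.

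Groups of 2 pools limit every comparison, TPM hides depth, and where a group is left with 1 library that library is assumed to vary like the others.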
